A study of Mus musculus with 2 samples.

Results

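Antisense genes are transcribed from the DNA strand opposite to another gene. The genes described here are the 123 that GENCODE release M21 (mouse genome GRCm38) classes as antisense and that averaged at least 1 CPM (read counts scaled to a common library size) of file total over a control and an exposed lung library. They are 123 of the 1529 antisense genes in the count files, which list 37315 gene identifiers in all. Genes whose symbol starts with Snhg, and Kcnq1ot1, were left out by the rule; 2 genes in the files met this exclusion, and 0 of them reached the mean. Each antisense gene was set beside its sense gene, meaning the protein-coding gene on the opposite strand whose gene body it overlaps over the longest stretch. Such a gene was found in the count files for 110 of the 123, and since some antisense genes share one, these are 108 distinct sense genes.

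The lungs came from C57BL/6 mice, an inbred laboratory strain. One library was labelled control and the other came from exposure to PM2.5, fine airborne particles named for a diameter of up to 2.5 micrometres. Both titles carry 12 and a W that is not spelled out, and the sex and age of the mice, the dose, the route and the number of animals behind a library are not given. With 1 library per group the difference has no replicate check, so each ratio carries a 95% interval for counting error only and no p-value is given.

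Many antisense RNAs are spliced and polyadenylated like messenger RNA but hold no long reading frame, and most are made at low levels. Some act on their neighbours: transcription across a promoter can silence the gene in cis, as Airn does at the imprinted Igf2r locus in the mouse. Others share an open promoter with the sense gene, host microRNAs, or form RNA duplexes with it. Much antisense RNA is degraded in the nucleus by the RNA exosome soon after it is made.

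The files held 62788045 counts (control) and 57435027 counts (PM2.5). Levels are given as CPM of library sizes scaled by TMM, and "ratio" means PM2.5 over control. The tissue label was checked against 12 lung markers, among them Sftpc, Ager, Cdh5 and Scgb1a1. All 12 were detected, and their summed level was 52307 CPM in the control and 60978 CPM in the PM2.5 library. Of the 12, 1 was at least 1.5-fold higher after PM2.5 and 4 were at least 1.5-fold lower, with a median log2 ratio of -0.38. Markers of other cells differed between the libraries in the same contrast as every result below. All 11 adipocyte markers were at least 1.5-fold higher after PM2.5 (sum 139 against 825 CPM), as were 9 of 9 neutrophil markers (594 against 1776 CPM), 6 of 7 B cell markers and 5 of 7 NK cell markers. All 5 measured erythroid markers were lower (5167 against 2118 CPM). None of the measured markers of these 5 cell types was at 0 in either library. Of the muscle markers, 2 of 3 measured skeletal ones were higher, and of 6 cardiac ones 4 were higher and 1 was lower. In bulk tissue, fewer cells of a type and less RNA per cell cannot be told apart. What part these differences have in the antisense values was not tested.

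Whether the reads were counted by strand is not given in the sources used here, and without it reads from a gene and its antisense partner cannot be told apart. The files bear on this in part. Of 26 antisense genes of at least 200 nt whose exons lie wholly under exons of the opposite strand, 0 reached 10 counts in either library, whereas 15.7% (control) and 32.2% (PM2.5) of 680 antisense genes under no other exons did. Of 24 protein-coding genes wholly under opposite exons, 12.5% and 20.8% reached 10 counts, against 67.3% and 69.4% of those under no other exons. Of 50 genes of any type wholly under same-strand exons, 0% and 4% reached 10 counts, beside 7.22% and 10.3% of 97 wholly under opposite exons. Genes under opposite exons were thus rarely counted, so these values do not show that reads were counted by strand. Of the 123, 8 had more than 50% of their exonic length under opposite exons, and those had a median log2 ratio of 0.13.

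Antisense genes stood mostly higher in the PM2.5 library. A gene was called at a ratio of 2 or more, or 0.5 or less, with an interval that excludes 1. By this rule 59 of the 123 antisense genes (48.0%) were higher, 0 were lower and 64 were neither. Among all 14544 genes at the same mean level, 7.44% were higher and 6.00% lower. The median log2 ratio was 0.87 (quartiles 0.16 and 2.14) for the antisense genes and -0.09 (quartiles -0.48 and 0.33) for all genes. The ratio was above 1 in 99 antisense genes (80.5%) and below 1 in 24. At 1.5-fold, 74 were higher and 6 lower, beside 15.1% and 19.0% of all genes. Their summed level was 465 CPM (control) and 733 CPM (PM2.5), a ratio of 1.58. Other scalings gave medians from 0.86 to 1.1.

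The way the genes were chosen touches these counts. The mean takes in a gene that is high in one library alone, and 48 of the 123 had under 1 CPM of file total in the control library. Of these 43 were called higher, and no gene of the 123 was under 1 CPM after PM2.5. Those 48 had to be higher after PM2.5 to be included at all. Of the 75 that reached 1 CPM in the control library, 16 were called higher and 0 lower, with a median log2 ratio of 0.34. Of all genes at the same mean and at 1 CPM in the control library, 5.02% were higher and 6.22% lower. The mean also leaves out genes that fall far enough after PM2.5. Whatever the mean, 78 antisense genes reached 1 CPM in the control library, and 16 of these were higher and 1 lower. Just inside the mean were Gm15848 (1.02 CPM), 1700071M16Rik (1.03 CPM) and 1810064F22Rik (1.04 CPM), and just outside were 9330160F10Rik (0.988 CPM), Gm17112 (0.987 CPM) and Bcas3os2 (0.983 CPM).

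**Figure D1:**
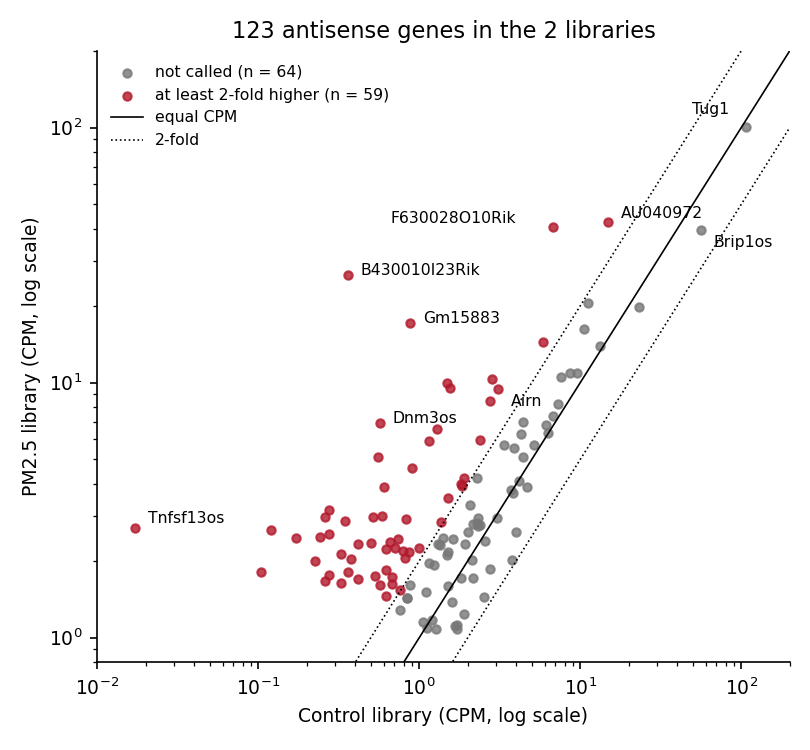
Level of each of the 123 antisense genes in the control library (horizontal axis) and the PM2.5 library (vertical axis), both in TMM-scaled CPM on log axes; the solid line is equal CPM and the dotted lines are 2-fold. The 59 genes called higher lie above the upper dotted line, most of them below 1 CPM in the control library, and no gene is called lower.

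The same direction was seen below the mean. The 1404 antisense genes that did not reach it summed to 5388 counts in the control and 15513 counts after PM2.5, a CPM ratio of 2.68. Over all 1529 antisense genes, 843 had a count in the control and 1110 after PM2.5, although the PM2.5 library was the smaller.

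Some other noncoding classes were higher too. Of 86 long intergenic noncoding (lincRNA) genes at the same mean, 37.2% were 2-fold higher and 4.65% lower, and of 111 genes classed as processed transcripts 43.2% were higher and 0.901% lower. Of 93 processed pseudogenes 10.8% were higher and 14.0% lower, with a median log2 ratio of 0.08. Protein-coding genes were called higher in 6.02% and lower in 6.10% of 13808. Protein-coding genes were called more often at low levels. At a mean of 1 to 2 CPM, 24.0% of protein-coding genes were higher and 9.15% lower, beside 59.7% and 0% of the 62 antisense genes there. Of 38 processed transcripts in that range 63.2% were higher and 0% lower, and of 26 lincRNA genes 26.9% and 3.85%. In that range 67.7% of the antisense genes and 38.0% of the protein-coding genes were under 1 CPM in the control library and so entered through the PM2.5 library. So did 68.4% of the processed transcripts and 46.2% of the lincRNA genes there. Classes that hold little mature message in lung were also higher. The 79 sense-intronic genes, which lie inside an intron of a gene on their own strand, summed to 431 and 1709 counts (CPM ratio 3.70). The 1146 olfactory receptor genes summed to 556 and 1129 counts (ratio 1.89), and 481 vomeronasal receptor genes to 152 and 435 (ratio 2.67). Protein-coding genes as a whole had a ratio of 0.846 after TMM scaling. In CPM of file total they stood at 975655 (control) and 967769 (PM2.5), so this ratio mostly reflects the scaling. What part unspliced RNA or genomic DNA has in these values was not tested.

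**Figure D2:**
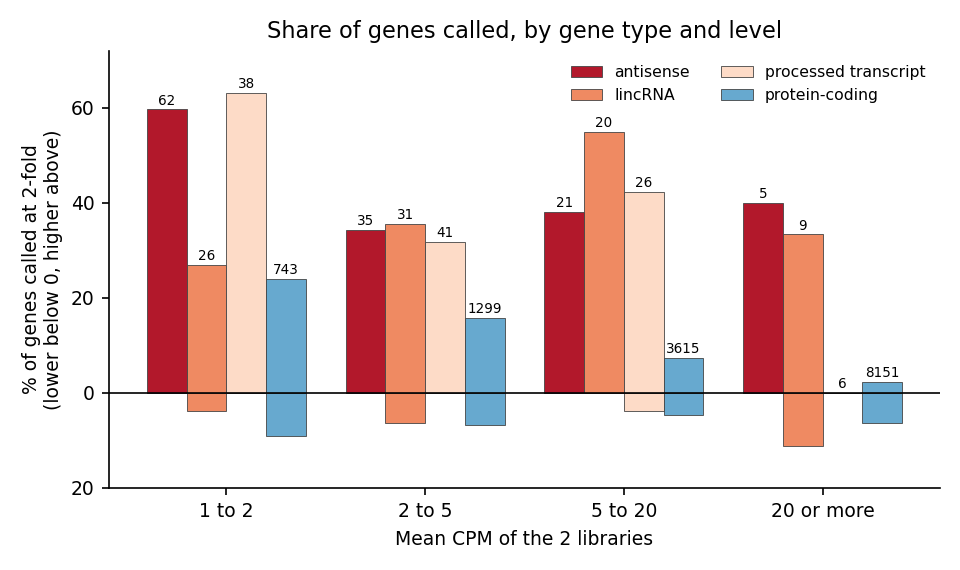
Percentage of genes called at 2-fold (vertical axis; higher above 0, lower below 0) in 4 ranges of mean CPM of file total (horizontal axis) for antisense, lincRNA, processed transcript and protein-coding genes, with the number of genes above each bar. Antisense bars reach 59.7% at 1 to 2 CPM and 38.1% at 5 to 20 CPM with none lower, above the protein-coding bars (24.0% and 7.36%) in the same ranges. The processed transcript bars there reach 63.2% and 42.3%, and the lincRNA bars 26.9% and 55%.

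The size of the difference varied with position relative to the sense gene. In 40 pairs the antisense gene lay inside the body of its sense gene, and 26 of these were 2-fold higher, with a median log2 ratio of 1.60. In 30 tail-to-tail pairs, which overlap at their 3′ ends, 16 were higher (median 1.06). In 35 head-to-head pairs, which overlap at their 5′ ends, 12 were higher (median 0.51). The 5 antisense genes that span a whole sense gene included 0 higher (median -0.51), and of the 13 with no counted protein-coding gene opposite 5 were higher (median 0.53). Control levels differed between these sets as well, with a median of 0.820 CPM of file total for genes inside, 1.37 CPM for tail-to-tail and 1.85 CPM for head-to-head genes, so position and low control level cannot be told apart here. Of the 31 antisense genes with no exon overlap with their sense gene, 21 were higher (median 1.51), and of the 79 with exon overlap 33 were (median 0.76). Most of the 31 lay inside their sense gene, so exon overlap cannot be told apart from position and low control level either. The exonic length of the antisense genes had a median of 1849 nt, against 4452.5 nt for protein-coding genes at the same mean. Of the 123, 118 had more than 1 exon in their longest model, and 0 of the 5 with a single exon were higher.

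**Figure D3:**
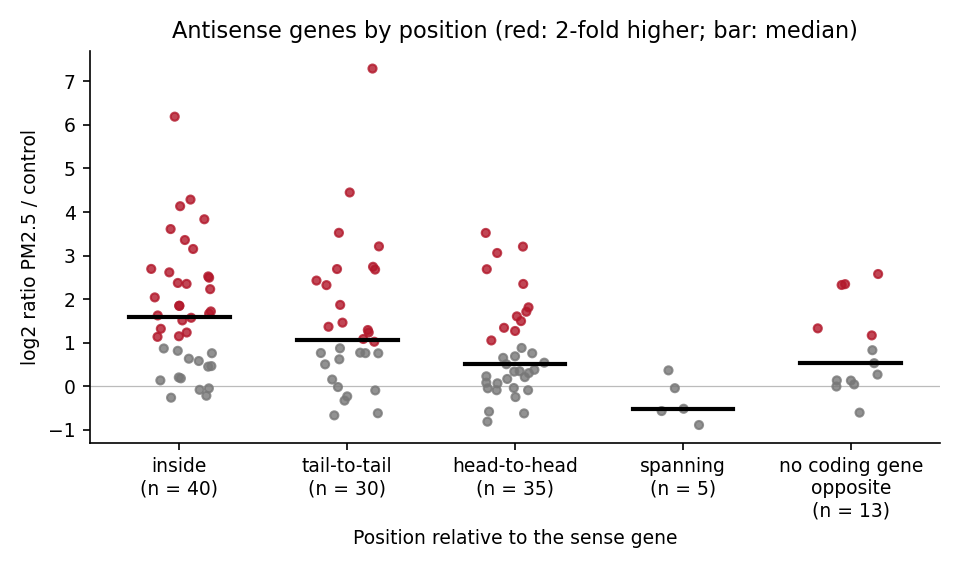
Log2 ratio of PM2.5 over control (vertical axis) for each antisense gene, grouped by its position relative to the sense gene (horizontal axis); red points are genes called 2-fold higher, grey points are not called, and bars are medians. The median falls from 1.60 for genes inside to 1.06 tail-to-tail and 0.51 head-to-head, and no spanning gene is called.

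Gene bodies hold the 2 antisense genes with the most counts among the 12 strongest differences, ranked by the lower bound of the interval. All 12 had under 1 CPM of file total in the control library, so they had to be higher after PM2.5 to be included. B430010I23Rik (chr8:41017468-41024216, plus strand) had 21 counts in the control and 1642 after PM2.5, a ratio of 72.9 (95% interval 47.5 to 118). It lies inside Mtus1, which encodes a microtubule-associated protein, and Mtus1 itself had 10426 and 9601 counts (ratio 0.858, interval 0.835 to 0.883). Per exon length, B430010I23Rik went from 0.621% to 52.7% of the level of Mtus1. Gm15883 (chr7:27124481-27130674, minus strand) had 51 and 1067 counts, a ratio of 19.5 (14.7 to 26.4). Its sense gene Cyp2f2, a cytochrome P450 abundant in club cells of the airway, had 89202 and 131206 counts (ratio 1.37, 1.36 to 1.38). Gm15883 therefore gained on Cyp2f2 by an odds ratio of 14.2 (10.7 to 19.2), and per length still reached only 0.974% of its level after PM2.5. Both antisense transcripts cross coding exons of their sense genes. For each, 1 stretch of coding overlap is given, together with that of Hopxos, which crosses the coding exon with the start codon of Hopx, a homeodomain-only cofactor of alveolar type I cells. Each is the antisense transcript 5′ to 3′ from GENCODE M21, with the bases opposite the coding exon in capitals (chr8:41022385-41022594 plus strand, chr7:27129754-27129893 minus strand and chr5:77094866-77095009 plus strand, GRCm38).
B430010I23Rik against Mtus1: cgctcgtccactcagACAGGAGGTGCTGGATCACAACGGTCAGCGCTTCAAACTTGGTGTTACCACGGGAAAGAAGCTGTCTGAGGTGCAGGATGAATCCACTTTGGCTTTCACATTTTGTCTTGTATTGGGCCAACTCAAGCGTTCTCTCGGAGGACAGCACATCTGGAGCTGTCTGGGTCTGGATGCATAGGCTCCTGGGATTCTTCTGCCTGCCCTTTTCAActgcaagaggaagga
Gm15883 against Cyp2f2: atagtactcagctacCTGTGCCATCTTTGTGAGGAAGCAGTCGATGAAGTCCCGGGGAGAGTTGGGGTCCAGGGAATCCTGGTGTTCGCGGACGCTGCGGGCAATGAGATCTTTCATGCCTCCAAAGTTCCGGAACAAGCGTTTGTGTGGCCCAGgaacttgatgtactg
Hopxos against Hopx: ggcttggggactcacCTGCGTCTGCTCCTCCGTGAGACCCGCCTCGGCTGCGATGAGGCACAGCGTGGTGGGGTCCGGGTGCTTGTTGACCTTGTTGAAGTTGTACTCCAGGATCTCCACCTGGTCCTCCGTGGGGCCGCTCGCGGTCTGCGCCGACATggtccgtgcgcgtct
The stretches in capitals measure 210, 140 and 144 nt, out of 612, 274 and 412 nt of exon sequence shared in all by the 3 pairs. In all, 49 of the 110 paired antisense genes overlap coding sequence of their sense gene. Reads from these stretches may have been dropped or assigned to the wrong gene, as the counting is not described. Members without exon overlap were not shown to be free of wrongly assigned reads.

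The other 10 of the 12 genes with the highest lower bound started from few counts, between 1 and 33 in the control library. Tnfsf13os had 1 count in the control and 168 in the PM2.5 library, so its ratio of 157 has an interval from 27.7 to 6221. It ends under the locus of Tnfsf13, the B cell survival cytokine APRIL, and the readthrough gene Tnfsfm13. Tnfsfm13 had 2727 and 2387 counts (ratio 0.816) and Tnfsf13 itself 173 and 274 (ratio 1.48, 1.22 to 1.80). Gm15347 had 7 and 164 counts (ratio 21.8, 10.4 to 55.2), while Atp11a, a phospholipid flippase, had 28245 and 24568. A730011C13Rik had 10 and 153 counts (ratio 14.3, 7.55 to 30.3), while Pi4kb, a phosphatidylinositol kinase, had 2578 and 2407. Gm15601 had 15 and 185 counts (ratio 11.5, 6.79 to 21), while the phospholipase gene Ddhd1 had 1644 and 1967. In these pairs the sense gene stayed within 1.5-fold.

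Of the 12 strongest, 4 lay opposite a sense gene that was itself at least 1.5-fold higher, 1 opposite a sense gene that was lower, and 7 opposite one that was neither. 1700071M16Rik went from 6 to 113 counts (ratio 17.6) inside Pla2g7, the platelet-activating factor acetylhydrolase, which went from 1955 to 3190 (ratio 1.52, 1.44 to 1.61). Gm15777 went from 16 to 197 counts (ratio 11.5) head to head with Coq2, a gene of coenzyme Q synthesis, which went from 1218 to 2984 (ratio 2.28, 2.14 to 2.44). Gm20692 went from 14 to 154 counts (ratio 10.3) inside Hdhd5, which went from 661 to 1278 (ratio 1.80). Gm16170 went from 16 to 159 counts (ratio 9.26, 5.53 to 16.6) opposite Trim7, a ubiquitin ligase gene, which went from 175 to 917 (ratio 4.88, 4.15 to 5.77). For Gm16170 alone of these 4, the odds ratio was under 2 (1.90, 1.10 to 3.48). The pair with the sense gene lower was Gm15674 and Cd55b, a complement decay-accelerating factor. Gm15674 had 32 and 317 counts and Cd55b 44 and 27, and their annotated starts lie 185 nt apart.

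The 3 antisense genes found to host a microRNA were also 2-fold higher. Dnm3os, which carries miR-199a-2 and miR-214 inside the gene for dynamin 3, had 33 counts in the control and 432 in the PM2.5 library (ratio 12.2, 8.56 to 18). Dnm3 had 544 and 738 counts (ratio 1.26, 1.13 to 1.42), and the 2 genes share no exon sequence. F630028O10Rik on the X chromosome (chrX:96239926-96243636, plus strand) spans the hairpin of miR-223, a microRNA of neutrophils and other myeloid cells. It had 394 and 2524 counts, or 6.80 and 40.6 CPM, a ratio of 5.97 (5.37 to 6.66), and no counted protein-coding gene lies opposite. The neutrophil markers S100a8 and Csf3r had ratios of 3.46 and 3.93, the list median was a log2 ratio of 1.78, and F630028O10Rik stood at 2.58 on the same scale. The part of neutrophil content in its value was not tested. The mature microRNAs these transcripts carry are shown from RefSeq with the seed, bases 2 to 8, in capitals.
miR-199a-5p: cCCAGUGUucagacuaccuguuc
miR-199a-3p: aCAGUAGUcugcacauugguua
miR-214-5p: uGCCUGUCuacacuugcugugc
miR-214-3p: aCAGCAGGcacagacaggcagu
miR-223-5p: cGUGUAUUugacaagcugaguug
miR-223-3p: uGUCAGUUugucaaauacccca
The 6 seeds all differ. The genes of these microRNAs have 0 counts in both libraries, so only the host transcripts were measured here. Gm15987, whose gene body holds miR-7649, had 110 and 262 counts (ratio 2.22, 1.77 to 2.80), inside Clec2g with 7 and 30.

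The 3′ ends of the members were read for a polyadenylation signal, since the libraries were made from selected messenger RNA. The hexamer AATAAA occurred in the last 50 nt of 60 of the 123 antisense transcripts (48.8%), in 47.5% of those called higher and 50% of the others. It occurred in 32.1% of antisense genes outside the 123 and in 60.3% of protein-coding genes at the same mean. The last 50 nt of Gm15883, Dnm3os and F630028O10Rik are shown from GENCODE M21 with the signal nearest the end in capitals, as examples of higher members that carry it.
Gm15883: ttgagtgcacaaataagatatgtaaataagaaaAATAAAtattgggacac
Dnm3os: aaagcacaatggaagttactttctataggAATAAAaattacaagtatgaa
F630028O10Rik: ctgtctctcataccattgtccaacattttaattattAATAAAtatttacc
With the variant ATTAAA counted as well, the shares were 52.5% of the higher members and 62.5% of the others. Only the longest annotated transcript of each gene was searched, on its own strand.

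In 13 pairs the antisense gene was at least 1.5-fold higher and the sense gene at least 1.5-fold lower, and in 0 pairs the reverse. Of 2756 genes of any type with an opposite protein-coding gene, 2.36% were in the first state and 2.25% in the second. As so many antisense genes were higher, the first state is read against their number. A lower sense gene was found in 13 of 68 pairs (19.1%) whose antisense gene was 1.5-fold higher. It was found in 14 of the other 42 pairs (33.3%). Among 510 genes of any type that were 1.5-fold higher, 12.7% had a lower opposite protein-coding gene. The share beside higher antisense genes was thus below that of the other pairs and above that of higher genes of any type. It was near the 19.0% of all genes that were 1.5-fold lower. Whether the 2 changes are linked was not tested. Airn, the imprinted transcript that overlaps the promoter of the receptor gene Igf2r, had 180 counts in the control and 588 in the PM2.5 library (ratio 3.04, 2.57 to 3.62). Igf2r had 7331 and 3839 counts and was 2.05-fold lower (1.97 to 2.13), so the odds ratio was 6.24 (5.24 to 7.45). Per exon length Airn went from 6.35% to 39.6% of the level of Igf2r. The part of Airn transcription in the level of Igf2r was not tested.

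Another 3 of these pairs start head to head, 7, 696 and 469 nt apart. Phf2os1 went from 33 to 100 counts (ratio 2.82, 1.89 to 4.32), and the histone demethylase gene Phf2 from 8915 to 4298 (2.23-fold lower, 2.15 to 2.31). Tbx3os1 went from 79 to 176 counts (ratio 2.08) and Tbx3, a T-box factor of lung mesenchyme, from 9896 to 5422 (1.96-fold lower). A930024E05Rik went from 48 to 181 counts (ratio 3.51), and the demethylase gene Kdm2b from 1517 to 975 (1.67-fold lower). The window around the start of Phf2 is shown from RefSeq (GRCm38.p6, chr13:48870836-48871135, minus strand, 250 bases before to 50 after the RefSeq start), with the 8 bases from one GENCODE start to the other in capitals.
Phf2: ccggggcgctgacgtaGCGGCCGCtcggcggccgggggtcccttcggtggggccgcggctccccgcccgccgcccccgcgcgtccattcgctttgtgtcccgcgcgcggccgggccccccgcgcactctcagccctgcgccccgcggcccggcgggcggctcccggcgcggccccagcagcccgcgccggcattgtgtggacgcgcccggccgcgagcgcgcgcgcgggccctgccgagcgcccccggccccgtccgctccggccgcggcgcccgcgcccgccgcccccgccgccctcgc
It holds 63 CG dinucleotides, 1.14 times the number its base composition gives. Over all members with a RefSeq promoter the median of this observed to expected ratio was 0.49, with 0.32 for the 27 called higher and 0.71 for the 36 that were not, and it was 0.76 for 86 sense genes and 0.39 for all 27025 promoters. Only 63 of the 123 antisense genes matched a promoter there.

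In the other opposite pairs, apart from Gm15674 and Cd55b, the antisense gene lay inside the sense gene or tail to tail with it. Gm15910 had 24 and 106 counts (ratio 4.12) inside Msrb3, a methionine sulfoxide reductase gene, which had 9840 and 5553. Gm15541 had 41 and 140 counts (ratio 3.18) inside Prx, the periaxin gene, which had 20193 and 9305 (2.33-fold lower, 2.27 to 2.39). AU040972 had 867 and 2656 counts (ratio 2.86, 2.64 to 3.09), the highest count of any member called higher, inside Nf1, the neurofibromin gene, which had 3397 and 2352 (1.55-fold lower). Gm2415 had 44 and 96 counts at the tail of the integrin gene Itga9, which had 9480 and 5589 (1.82-fold lower). Gm9968 had 51 and 100 counts inside the zinc finger gene Zbtb20, which had 14128 and 9258 (1.64-fold lower). The remaining 3 pairs were 1110002L01Rik with Kif3c, Rptoros with Rptor and Gm17182 with Slc34a2, the phosphate transporter of alveolar type II cells, with odds ratios of 2.93, 2.77 and 2.61; the first and last of these were named after their values were seen. Over the 13 pairs the odds ratios ran from 2.61 to 16.1, given as a description since the pairs were chosen for their opposite calls. The endothelial marker Cdh5 was 3.05-fold lower and Pecam1 1.72-fold lower in the same contrast; their part in the lower sense genes was not tested.

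In 14 other pairs both genes went the same way at 1.5-fold, 12 higher and 2 lower. The 12 are out of 68 pairs with a higher antisense gene, and the 2 out of 5 with a lower one. Of all genes, 15.1% were 1.5-fold higher and 19.0% lower. Whether the members of a pair moved together was not tested. Besides the 4 described, the 14 pairs included Gm15848 with Fcamr, a receptor for IgM and IgA, chosen after its values were seen. Gm15848 had 15 and 104 counts (ratio 6.46, 3.74 to 12) and Fcamr 39 and 185 (ratio 4.42, 3.12 to 6.42). Both lower were Gm4524 with the collagen prolyl hydroxylase gene P3h2 (ratios 0.631 and 0.454) and Gm20457 with Mtmr10 (0.652 and 0.623). How these counts split depends on the scaling: with unscaled library totals it was 18 the same way and 9 opposite.

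C920021L13Rik, also chosen after its values were seen, covers the start of the clock gene Ciart, a circadian repressor. C920021L13Rik had 86 and 618 counts (ratio 6.70, 5.34 to 8.49) and Ciart 173 and 971 (ratio 5.23, 4.45 to 6.19). The sense gene that shares the longest stretch with it, BC028528, had 1413 and 1798 counts (ratio 1.19, 1.11 to 1.27). Both genes over the Ciart promoter were thus several-fold higher, and the third was not. The annotated starts of C920021L13Rik and Ciart lie 10729 nt apart. The window around the start of Ciart (RefSeq, GRCm38.p6, chr3:95882179-95882478, minus strand) holds the E-box CACGTG, the motif bound by CLOCK and BMAL1, 3 times, shown in capitals.
Ciart: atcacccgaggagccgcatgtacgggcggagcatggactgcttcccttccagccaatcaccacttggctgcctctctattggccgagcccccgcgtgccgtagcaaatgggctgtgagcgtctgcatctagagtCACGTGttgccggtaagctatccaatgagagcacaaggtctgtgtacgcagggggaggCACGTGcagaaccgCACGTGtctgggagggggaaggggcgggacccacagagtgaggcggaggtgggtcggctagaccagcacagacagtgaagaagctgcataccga
CACGTG reads the same on both strands and occurs in 7.24% of all 27025 promoter windows. It occurs in 12.7% of the 63 of antisense genes and in 6.98% of the 86 of sense genes. Among the 63 it occurs in 7.41% of the 27 called higher and in 16.7% of the 36 that were not. A match is no evidence of binding, and the hour at which the lungs were taken is not in the labels.

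Antisense genes with given names followed the general pattern. Among 26 members named after a gene with the ending os, 9 were 2-fold higher and 0 lower, with a median log2 ratio of 0.76 and a range from -0.51 to 7.29. Hopxos had 30 and 185 counts (ratio 5.75, 3.89 to 8.76), beside 25629 and 33110 for Hopx (ratio 1.20). H3f3aos had 31 and 109 counts (ratio 3.28, 2.18 to 5.05), beside 23232 and 26186 for the histone H3.3 gene H3f3a (ratio 1.05). Both sense genes are abundant, and per length the antisense RNA reached 0.51% of Hopx and 0.479% of H3f3a after PM2.5. Arhgap27 has a pair of antisense members that differed. Arhgap27os3, inside the gene, had 52 and 289 counts (ratio 5.18, 3.84 to 7.10), while Arhgap27os1, head to head with it, had 132 and 175 (ratio 1.24, 0.980 to 1.56). Arhgap27 itself had 3280 and 3186 counts. Rab26os had 36 and 115 counts (ratio 2.98, 2.03 to 4.46), beside only 11 and 20 for Rab26.

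Several antisense genes lie at developmental transcription factor genes. Irx3os had 133 and 263 counts (ratio 1.84, 1.49 to 2.29), beside 3676 and 3739 for Irx3. In the Hox clusters, which set position along the body axis, Hoxaas3 had 39 and 101 counts (ratio 2.41, 1.65 to 3.59) and Hoxa3 509 and 559. Hoxaas3 also overlaps Hoxa4, Hoxa5, Hoxa6 and Hoxa7, whose ratios were 0.677, 0.718, 0.920 and 0.381. Hoxb3os had 194 and 354 counts (ratio 1.70, 1.42 to 2.04) and Hoxb3 114 and 179 (ratio 1.46). Gm15050, inside Hoxa3 and chosen after its values were seen, had 36 and 91 counts (ratio 2.36, 1.59 to 3.57).

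Several antisense genes fell short of 1.5-fold beside a lower sense gene. Junos had 250 and 391 counts (ratio 1.46, 1.24 to 1.72), while Jun, an immediate-early transcription factor gene, had 16243 and 8073 (2.16-fold lower). Bcas3os1 had 94 and 151 counts (ratio 1.5, 1.15 to 1.96), just under the limit before rounding, while Bcas3 was 2.01-fold lower. Plxna4os1 had 139 and 172 counts (ratio 1.15), while the semaphorin receptor gene Plxna4 was 2.14-fold lower. Zeb2os had 61 and 72 counts (ratio 1.10, 0.771 to 1.57), while Zeb2, a repressor of epithelial genes, had 10840 and 5787 (2.01-fold lower). Adap2os had 93 and 86 counts (ratio 0.862) and Adap2 1150 and 779 (1.58-fold lower). For Plxna4os1, Zeb2os and Adap2os the interval includes 1.

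Further antisense genes with given names had ratios from 1.45 to 2.45. Of others described below, Brip1os (0.701), Trmt61b (0.938), Tug1 (0.941) and Sp3os (0.970) had ratios under 1. Uckl1os and Uckl1 (ratios 1.57 and 1.71), Dnah2os and the ciliary dynein gene Dnah2 (1.69 and 1.90), Zfp335os and Zfp335 (1.69 and 1.32) and Atad3aos and Vwa1 (1.69 and 1.42) had odds ratios between 0.891 and 1.28. Rab10os had 648 and 1274 counts (ratio 1.83, 1.67 to 2.02), while Rab10 had 9222 and 6902 (ratio 0.698). Etohd2 had 107 and 244 counts (ratio 2.13), opposite the uridylyltransferase gene Tut7 (ratio 0.714). Fbxl12os had 58 and 140 counts (ratio 2.25) and Map2k3os 87 and 135 (ratio 1.45), and neither has a counted protein-coding gene opposite in the annotation. Gt(ROSA)26Sor, the transcript of the locus widely used for mouse transgenes, had 340 and 894 counts (ratio 2.45, 2.16 to 2.78), opposite Thumpd3 (ratio 1.17).

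**Figure D4:**
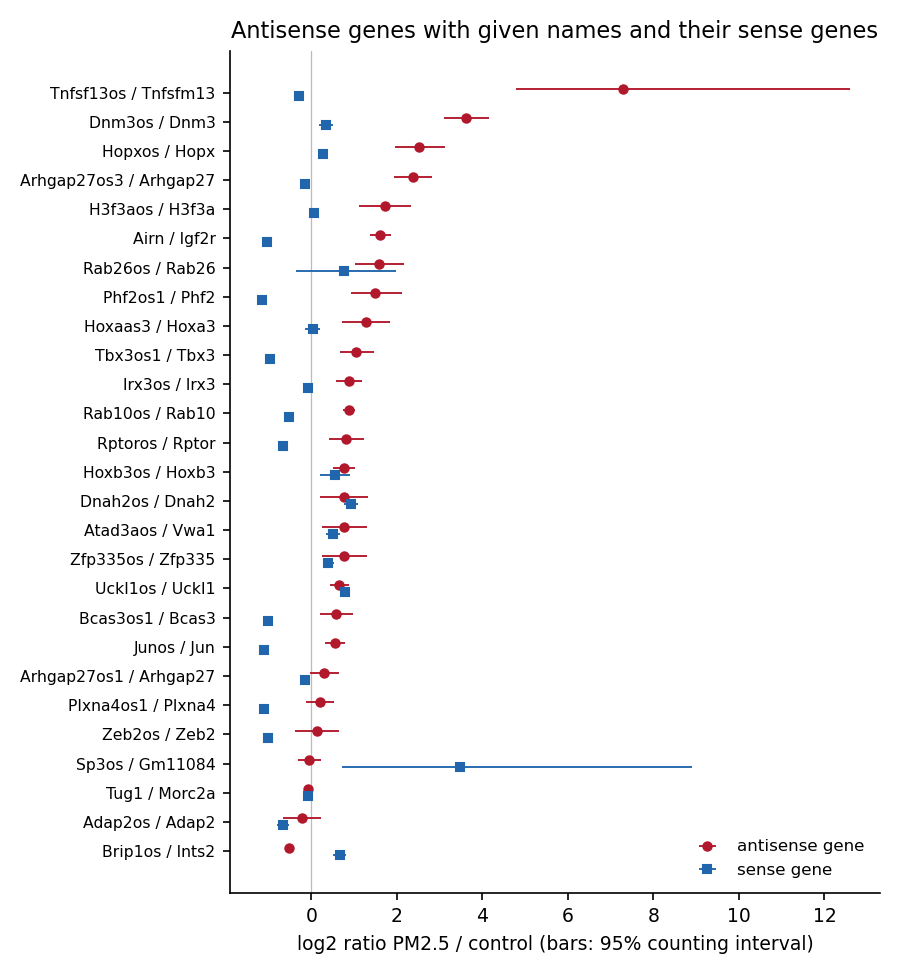
Log2 ratio of PM2.5 over control (horizontal axis) with 95% counting intervals for 27 named antisense genes (red circles) and their sense genes (blue squares): 24 with the ending os, and Airn, Hoxaas3 and Tug1. Most red circles lie right of 0. The blue square lies left of 0 for Airn, Phf2os1, Tbx3os1 and Rptoros, and also for others such as Junos, Plxna4os1, Bcas3os1 and Zeb2os.

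The 10 antisense genes with most counts differed among themselves. Tug1, a conserved long noncoding RNA and the most abundant member, had 6215 and 6275 counts, or 107 and 101 CPM (ratio 0.941, 0.908 to 0.975). Its head-to-head neighbour Morc2a had 2744 and 2809. Brip1os had 3279 and 2465 counts (ratio 0.701, 0.665 to 0.738), while Ints2, a subunit of the Integrator complex, had 579 and 984 (ratio 1.58), so their odds ratio was 0.442 (0.393 to 0.497). Gm17344 had 1348 and 1234 counts (ratio 0.853) opposite the clathrin adaptor gene Ap1g1, which was 1.58-fold lower. 6330403L08Rik had 766 and 863 counts (ratio 1.05) and the growth factor gene Pdgfa 4805 and 5694. E130307A14Rik had 609 and 1005 counts (ratio 1.54, 1.39 to 1.70), beside 957 and 882 for Traf3ip2.

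At 1.5-fold 6 members were lower, and they are named here after their values were seen: Gm20632, C330011M18Rik, Gm4524, Gm12473, Gm20457 and Gm11730, with ratios from 0.541 to 0.659. Gm20632 had 217 and 126 counts (ratio 0.541, 0.431 to 0.677). It spans the histone gene Hist2h2aa2, which with its near-identical copy Hist2h2aa1 is listed with 0 counts in both libraries. Gm20633, across Hist2h2aa1, had 160 and 116 counts (ratio 0.676). The values of this duplicated locus are uncertain, as reads from near-identical copies can be split or dropped.

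Within pairs, the share of antisense reads was mostly larger after PM2.5. An odds ratio, the antisense to sense count ratio in the PM2.5 library over that in the control, could be computed for 107 of the 110 pairs (the other 3 sense genes have 0 counts) and does not depend on how the libraries are scaled. It was 2 or more with an interval excluding 1 in 59 pairs, 0.5 or less in 4, and above 1 in 92, with a median of 2.21. Of 2756 genes of any type with an opposite protein-coding gene, 13.6% reached 2 and 13.1% were at 0.5 or less. These counts carry the choice of members described above. With the antisense gene at 1 CPM or more in the control library, an alternative added after seeing the data, 21 of 63 pairs reached 2 and 4 were at 0.5 or less, beside 10.3% and 13.8% of all such genes, and the median was 1.39 with 49 above 1. The 4 lower pairs were Sp3os with Gm11084 (1 and 12 sense counts, odds ratio 0.0867), Trmt61b with Spdya (9 and 38 sense counts, 0.238), Brip1os with Ints2 (0.442) and C330011M18Rik with Rfx1 (0.482). Sp3os itself had 220 and 229 counts, and the gene it is named after, Sp3, had 6721 and 5801. In the first 3 of these 4 pairs the sense gene had fewer counts than the antisense gene in both libraries.

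The sense genes were more often lower than higher. At 1.5-fold 15 of 108 were higher (13.9%, beside 15.1% of all genes), 27 lower (25%, beside 19.0%) and 66 neither (3 of these have 0 counts in both libraries), with a median log2 ratio of -0.20, near the -0.09 of all genes. Across the 107 pairs the log2 ratios of antisense and sense gene had a Spearman coefficient of 0.20, given as a description since all pairs share the same 2 libraries. Per exon length, the antisense gene stood at a median of 10.7% of its sense gene in the control and 24.0% in the PM2.5 library. It was below its sense gene in 87 of 107 pairs in the control and in 76 after PM2.5.

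**Figure D5:**
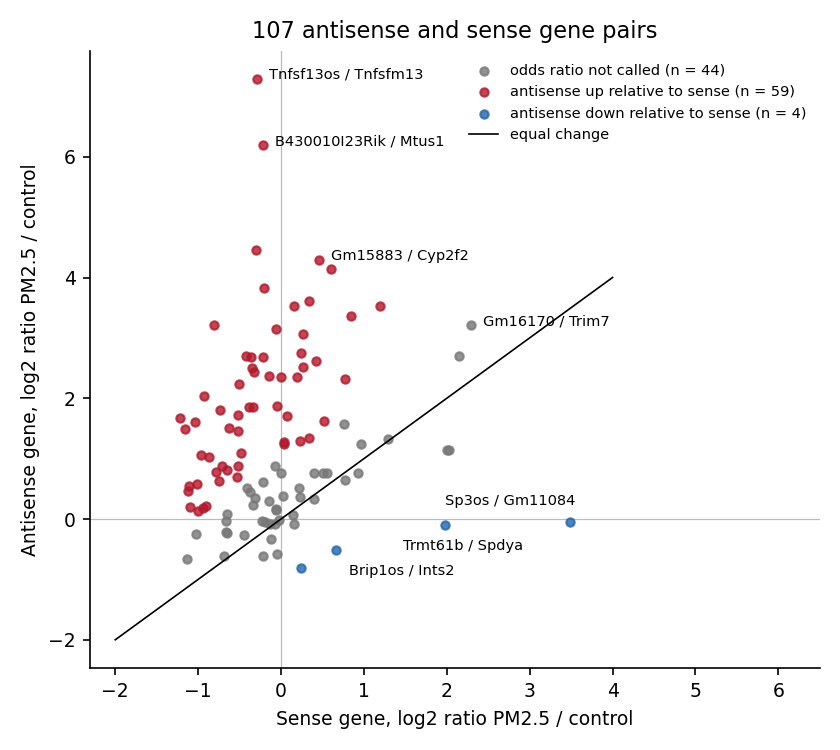
Log2 ratio of PM2.5 over control for the sense gene (horizontal axis) and the antisense gene (vertical axis) of 107 pairs; red, blue and grey mark odds ratios called higher, called lower and not called, and the line is equal change. The 59 red points lie above the line, all at sense log2 ratios of 1.19 or less, and 4 blue points lie below it.

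Genes that act on such RNAs were read from 3 lists, at 1.5-fold, where 15.1% of all genes were higher and 19.0% lower. In none of the 3 lists was the share higher, or the share lower, above that of all genes. Of 24 genes of the nuclear RNA exosome and its adaptors, 3 were higher and 0 lower, with a median log2 ratio of 0.05. The 3 were the exosome subunit Exosc8 (ratio 1.55, 1.42 to 1.69), Zfc3h1 of the exosome-targeting adaptor for polyadenylated RNA (1.59, 1.52 to 1.66) and the nuclear poly(A)-binding protein gene Pabpn1 (512 and 1654 counts, ratio 3.01, 2.73 to 3.33). Of 30 genes for processing, editing and sensing double-stranded RNA, 4 were higher and 5 lower (median -0.16). The interferon-induced genes Oas2 (169 and 949 counts, ratio 5.23, 4.44 to 6.20), Zbp1 (ratio 2.19) and Oas1a (1.58) and the Argonaute gene Ago3 (1.62) were higher. The RNA editing enzyme gene Adarb1 (9565 and 4342 counts, 2.36-fold lower, 2.28 to 2.45), Stau2 (1.85-fold lower), the microRNA-processing nuclease gene Drosha (1.80-fold) and the sensor gene Ifih1 (1.64-fold) were lower, as was Ago1. Of 14 genes of nonsense-mediated decay, Upf3b was higher (ratio 1.92) and Smg8 and Eif4a3 were lower (1.73-fold and 1.64-fold). The medians of the 3 lists lay between -0.26 and 0.05, beside -0.09 for all genes and 0.87 for the antisense genes.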

How the data were processed

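Polyadenylated RNA was sequenced from 1 control and 1 PM2.5 lung library (KAPA stranded kit, HiSeq2500, paired reads of 125 bp, per the labels' protocols). Raw, unnormalized counts of reads for each Ensembl gene were deposited; TopHat2 2.1.1, HTSeq 0.6.0 and mm10 come from the submitters' processing notes. The annotation release and the strand setting were not given in the sources used here. Gene types and models were taken from GENCODE M21, which 35449 of 37315 identifiers matched; the models behind the counts are older and may differ.

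Library sizes were scaled by TMM (edgeR 4.0.16; factors 0.923 and 1.08). Ratios carry exact Clopper-Pearson 95% intervals and pairs exact conditional intervals for the odds ratio (Python 3.11.15, scipy 1.17.1; a normal approximation served for the 2756 background pairs); reads are not independent molecules, so these cover counting error only. A library at 0 was set to a floor of 3 counts. Steps were tested on simulated counts. DESeq2 1.42.0 size factors, library totals and upper quartile were alternatives, with other filters, sizes and sense genes.

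The members and lists were chosen with earlier results of these data known. Named were the 12 members with the highest and the 12 with the lowest interval bound among those called, the 10 with most counts, those with given names, up to 10 opposite pairs, and up to 4 genes of each list; others were chosen after their values were seen, and 1 that the rule takes is not reported here.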

Additional observations from a re-analysis of the deposited data

How the results depend on the processing

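No paired analysis was possible because each group holds 1 library; for the same reason no replicate could be left out. The count of 59 of 123 antisense genes higher ran from 59 to 65 under the 4 other scalings. It was 411 of 1152 without a filter, 10 of 26 at a mean of 5 CPM, 16 of 75 at 1 CPM in both libraries, 25 of 42 among genes with no opposite exon over theirs, and 16 of 78 at 1 CPM in the control library, a filter chosen after seeing the data. The count lower, 0, became 13 without a filter, 6 at 1.5-fold and 1 with the control filter. Odds ratios of 2 or more, 59 of 107 pairs, became 13 of 22 at 5 CPM, 21 of 31 without exon overlap and 21 of 63 with the control filter. Odds ratios of 0.5 or less, 4 pairs, became 2 with the most counted sense gene and 1 each with the bound beyond 2, at 5 CPM and without exon overlap. Pairs with both genes called, 27, became 9 at 2-fold and 10 without exon overlap. Of the 123 members, 6 more were called with library totals and 3 more with the upper quartile, and no direction reversed for a called gene. Low control counts limit the precision: 48 members had under 1 CPM there.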
